A study of Homo sapiens with 18 samples.

Results

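The 7 protein-coding genes described here stood among the largest rises after depletion of UPF1, of RCOR1 or of both in androgen-free LNCaP cells, 7 of the 60649 genes in the count table. They are NAV3, EPB41L3, FBN1, CRISP3, EPDR1, EFNA5 and FAM184B. They were chosen on their levels in the vehicle libraries, so the members' values from those libraries are descriptions without a test, and the members were tested only among the libraries treated with androgen. Other genes, which were not chosen on these libraries, were tested in both treatments. LNCaP is an androgen-responsive human prostate cancer line. Cells were transfected with 1 of 3 siRNA pools, against UPF1, against RCOR1 or non-targeting (control siRNA), and were given androgen-deprived medium from the next day. After 48 h of transfection either 5 nM R1881, a synthetic androgen, or its ethanol vehicle was added for 48 h. All 6 groups therefore share transfection and androgen-deprived medium, and each group holds 3 libraries of ribosomal RNA-depleted total RNA, biological triplicates per the labels' protocols. Each target was reached with 1 siRNA pool in 1 cell line, so the spread between libraries holds neither the spread between siRNAs nor that between lines.

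UPF1 is a helicase on which nonsense-mediated decay (NMD) depends, a pathway that removes transcripts whose stop codon is read as premature and that also sets the level of a number of normal transcripts. RCOR1, also called CoREST, is the scaffold that joins the histone demethylase KDM1A to histone deacetylases in a complex that represses transcription, first known from neuronal genes silenced by REST. In prostate epithelium androgen raises the transcripts of some genes and lowers those of others.

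Library totals ran from 10299607 to 17338235 counts. The siRNAs lowered their targets. UPF1 lay at 123 to 155 normalised read counts (CPM, scaled by trimmed mean of M values) with control siRNA in vehicle and at 20.5 to 25.9 with UPF1 siRNA, and in R1881 it was 5.68-fold lower with its siRNA. RCOR1 lay at 89.7 to 107 CPM with control siRNA in vehicle and at 9.08 to 15.8 with RCOR1 siRNA, and in R1881 it was 6.37-fold lower. UPF1 itself was 1.28-fold lower with RCOR1 siRNA in R1881 (edgeR adjusted p = 0.04). All 10 luminal and LNCaP markers passed the filter on low counts, KLK3 among them. In R1881, UPF1 siRNA raised 1 and lowered 4 of them, beside 17.6% and 15.7% of all genes (edgeR adjusted p below 0.05). RCOR1 siRNA raised 0 and lowered 7, beside 5.06% and 7.33% of all genes. Their summed level in R1881 was 14070 to 15270 CPM with control siRNA, 12470 to 13620 with UPF1 siRNA and 10500 to 11630 with RCOR1 siRNA. In the lists of markers of other cell types, some genes were at or near 0 over all 18 libraries. COL1A2, CDH5, CD3E and TP63 had 0 counts, and DCN, FAP and THY1 had 1 count each. The genes of these lists that passed the filter were COL1A1 and COL3A1 of the fibroblast list, VWF of the endothelial list, CD68 of the leukocyte list and KRT14 and ITGB4 of the basal list. Some of them moved with the siRNAs in R1881. With UPF1 siRNA VWF rose by 1.71 on the log2 scale, from a mean of 4.30 to 14.0 CPM (edgeR adjusted p = 1.5e-06), and KRT14 rose by 1.61, from 1.94 to 5.95 CPM (1.5e-05). With RCOR1 siRNA KRT14 rose by 0.77 (edgeR adjusted p = 0.023) and ITGB4 fell by 1.22 (0.039). CD68 was called with neither. The part of these genes in the members' differences was not tested. In bulk RNA, fewer cells of a kind and less RNA per cell cannot be told apart. In the group with UPF1 siRNA and R1881, replicates 1 and 2 were low in AT-rich transcripts: the median deviation of 1734 genes of under 40% GC was -0.74 and -0.51 on the log2 scale, against -0.34 to 0.45 in the other 16 libraries.

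The genes lie on different chromosomes and the sequences at their starts are unlike. RefSeq (GRCh38.p14) gave 12 start sites for the 7 genes. The 300 bases from 250 before to 50 after a start are printed for 4 of these sites. EFNA5, EPDR1 and FAM184B are shown because their level was highest with RCOR1 siRNA in both treatments, and NAV3 because its level was high with UPF1 siRNA alone. Each runs 5′ to 3′ on the strand of the gene, with GC boxes (GGGCGG, or CCGCCC on the other strand) in capitals.
EFNA5, chr5:107670888-107671187, minus strand: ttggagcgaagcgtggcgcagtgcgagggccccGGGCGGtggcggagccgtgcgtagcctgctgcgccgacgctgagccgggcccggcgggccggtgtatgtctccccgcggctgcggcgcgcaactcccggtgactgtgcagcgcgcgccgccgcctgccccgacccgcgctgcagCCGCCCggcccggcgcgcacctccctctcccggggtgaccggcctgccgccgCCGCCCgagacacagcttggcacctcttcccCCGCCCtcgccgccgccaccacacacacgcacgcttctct
FAM184B, chr4:17781572-17781871, minus strand: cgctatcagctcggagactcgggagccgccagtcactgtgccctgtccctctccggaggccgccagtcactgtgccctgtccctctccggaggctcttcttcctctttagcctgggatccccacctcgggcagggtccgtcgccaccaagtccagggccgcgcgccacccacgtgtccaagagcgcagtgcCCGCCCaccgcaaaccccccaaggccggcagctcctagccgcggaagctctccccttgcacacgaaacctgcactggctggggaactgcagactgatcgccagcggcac
EPDR1, the second of its start sites, chr7:37921069-37921368, plus strand: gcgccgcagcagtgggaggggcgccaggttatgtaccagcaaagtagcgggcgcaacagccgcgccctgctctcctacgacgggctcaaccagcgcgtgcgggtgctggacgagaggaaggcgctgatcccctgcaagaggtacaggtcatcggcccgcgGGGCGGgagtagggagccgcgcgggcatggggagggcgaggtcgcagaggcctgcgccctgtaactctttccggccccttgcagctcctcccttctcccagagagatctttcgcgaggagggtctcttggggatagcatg
NAV3, the first of its start sites, chr12:77830644-77830943, plus strand: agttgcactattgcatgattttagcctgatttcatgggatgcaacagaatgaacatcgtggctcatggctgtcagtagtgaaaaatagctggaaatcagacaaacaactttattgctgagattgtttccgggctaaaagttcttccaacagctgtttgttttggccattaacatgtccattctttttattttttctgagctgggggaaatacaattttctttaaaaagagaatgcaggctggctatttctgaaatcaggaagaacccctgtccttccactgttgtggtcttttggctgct
The EFNA5 sequence held 4 GC boxes and 78.0% GC, above 95.1% of the 35116 RefSeq promoters of this length. FAM184B held 1 GC box at 68.0% GC. EPDR1 held 1 at its second start, with 67.3% GC, and 0 at its first, which is not printed and had 53.7% GC. NAV3 held none at either start, and its first start was richer in GC than 11.2% of promoters. The median over all promoters was 58.7% GC. GC boxes were in 45.0% of all promoters. None of the 12 member sequences held the interferon response core (in 3.57% of promoters), TGANTCA (AP-1, 7.71%) or TATAAA (the TATA box, 11.5%), each searched on both strands. AGAACA, the androgen receptor half-site (14.8%), was likewise in none of the 12 on either strand. A missing match says only that these letters are not in this window.

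Among the R1881 libraries, which the rule for choosing the genes did not use, UPF1 siRNA raised 4 of the 7 and RCOR1 siRNA raised 6. The genes were chosen with earlier results of these data known. NAV3, FBN1, EPB41L3 and EFNA5 were higher with UPF1 siRNA than with control siRNA, by between 0.17 and 2.87 on the log2 scale. Without the 2 libraries low in AT-rich transcripts, NAV3 and FBN1 remained called and EPB41L3 and EFNA5 did not. FAM184B, EPB41L3, FBN1, CRISP3, EPDR1 and EFNA5 were higher with RCOR1 siRNA, by between 0.86 and 2.15, and the call of CRISP3 was lost on leaving out single libraries. Of all 15390 genes tested, 17.6% were called higher and 15.7% lower with UPF1 siRNA, and 5.06% higher and 7.33% lower with RCOR1 siRNA (edgeR quasi-likelihood test, adjusted p below 0.05). Both comparisons use the same 3 control libraries, so they are not independent of each other. Each called gene had its 3 siRNA libraries above all 3 control libraries, which held for 22.7% of all genes with UPF1 siRNA and for 12.9% with RCOR1 siRNA. In vehicle, where the genes were chosen, 7 of 7 had no overlap with UPF1 siRNA (23.9% of all genes) and 6 of 7 with RCOR1 siRNA (13.1%), and nothing is read from those counts. The rule set no numeric threshold. Among rises in vehicle, FAM184B stood at rank 23 and EPDR1 at rank 78 with RCOR1 siRNA, and NAV3 at rank 44 and FBN1 at rank 61 with UPF1 siRNA. CRISP3, EPB41L3 and EFNA5 stood lower, at ranks 113, 124 and 133 with RCOR1 siRNA and at ranks 216, 181 and 6010 with UPF1 siRNA.

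**Figure D1:**
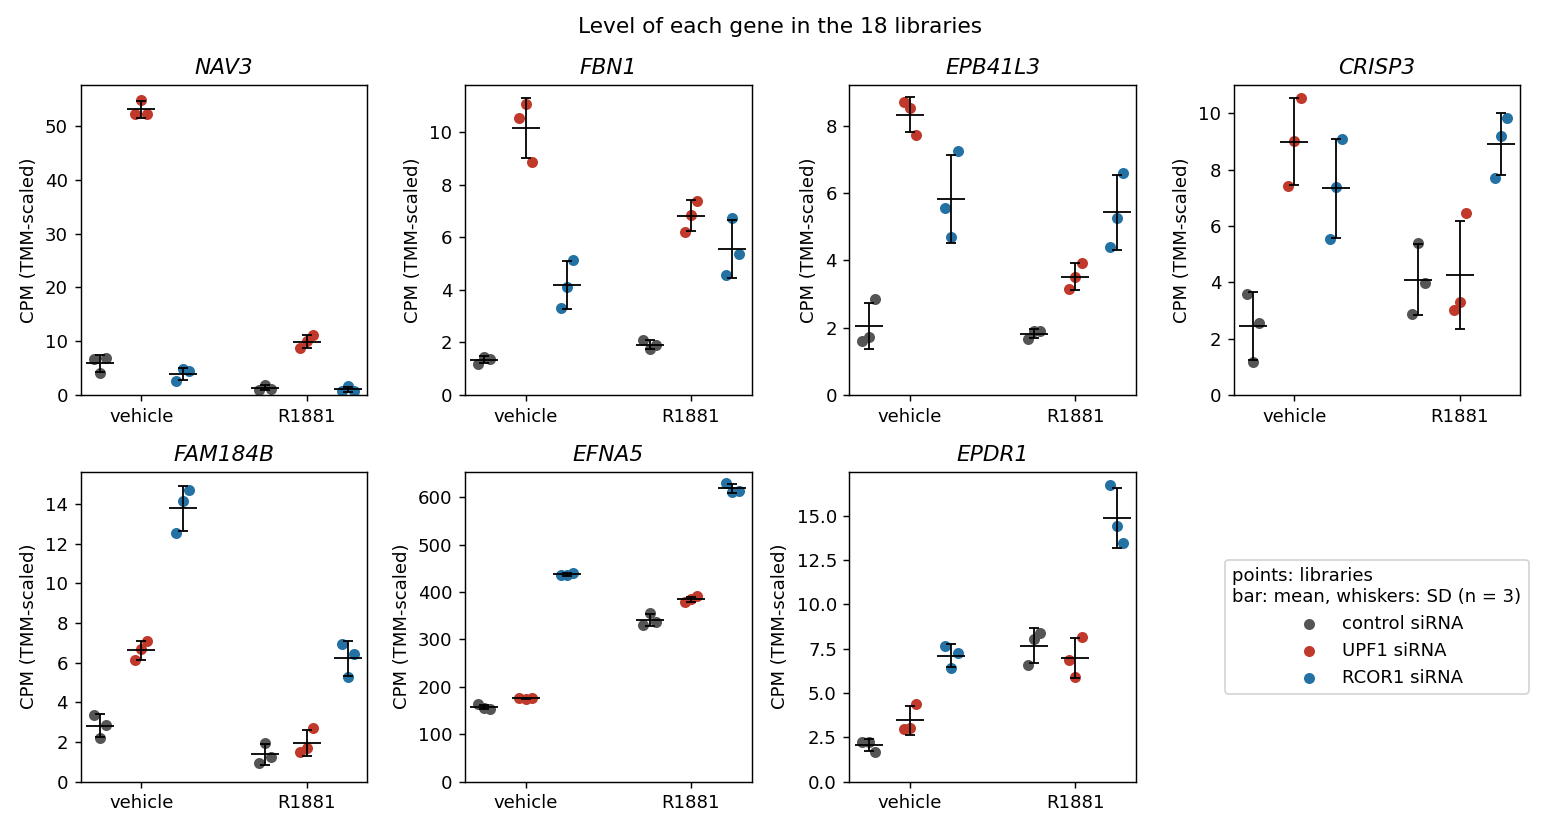
Level of each of the 7 genes in the 18 libraries (CPM, TMM-scaled, linear axes from 0, 1 panel per gene). Points are libraries, horizontal bars are means and whiskers are SD over 3 libraries, grouped by vehicle and R1881 and coloured by siRNA. NAV3 was high in the libraries with UPF1 siRNA, whereas EFNA5, EPDR1 and FAM184B were highest in those with RCOR1 siRNA.

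The direct comparison of the siRNAs in R1881 separated the genes. NAV3 was 9.85-fold higher with UPF1 siRNA than with RCOR1 siRNA (edgeR adjusted p = 9.8e-07). FAM184B, EPDR1, CRISP3, EFNA5 and EPB41L3 were lower with UPF1 siRNA than with RCOR1 siRNA, by 3.23-fold, 2.14-fold, 2.13-fold, 1.61-fold and 1.55-fold in that order. Of all genes, 21.8% were called higher and 18.8% lower in this comparison. FBN1 was not called, with a log2 difference of 0.30 ± 0.17 (SE, edgeR adjusted p = 0.17). The calls of EPB41L3 and CRISP3 were lost on leaving out single libraries, while the differences kept their sign. EPB41L3 went from -0.63 (edgeR adjusted p = 0.023) to -0.55, -0.63 and -0.46 without UPF1 siRNA replicate 1, UPF1 siRNA replicate 2 or RCOR1 siRNA replicate 3, with adjusted p of 0.096, 0.06 and 0.13. CRISP3 went from -1.09 (edgeR adjusted p = 0.015) to -0.89 and -0.94 without UPF1 siRNA replicate 1 or 2, with adjusted p of 0.077 and 0.068, and to -1.01 (0.05, just above the threshold) without RCOR1 siRNA replicate 3.

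**Figure D2:**
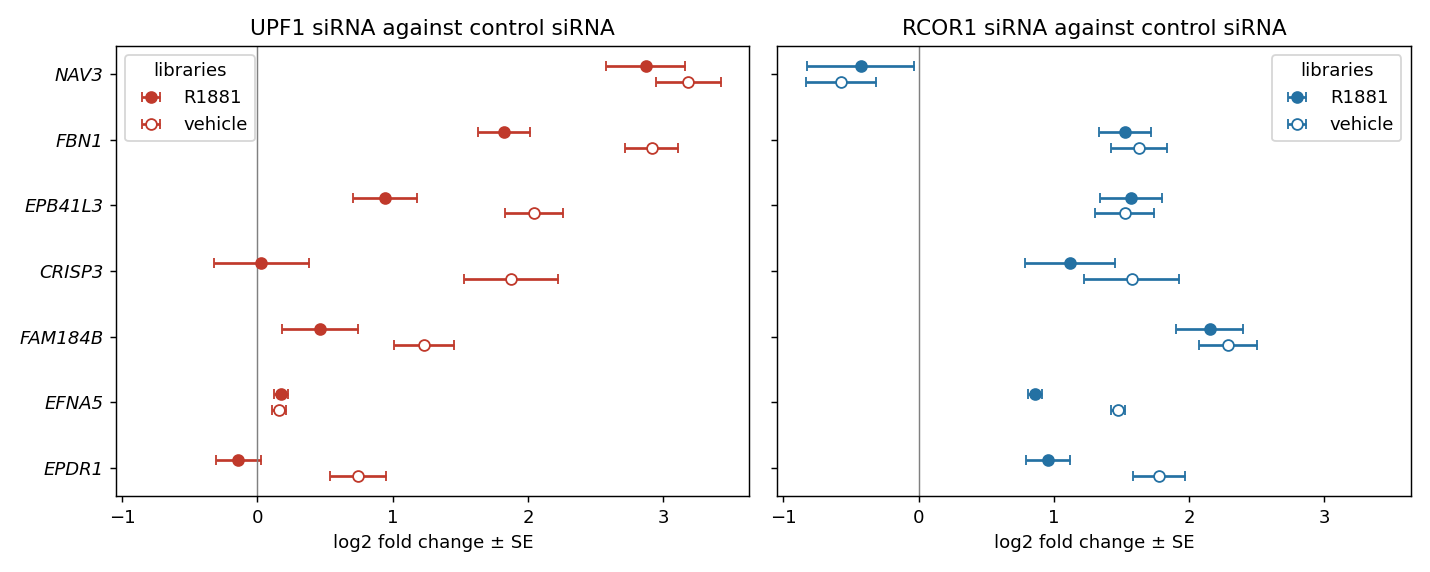
Log2 fold change ± SE of the 7 genes with UPF1 siRNA (left) and RCOR1 siRNA (right) against control siRNA, from the fit over 18 libraries. Filled points are the R1881 libraries, which were tested, and open points the vehicle libraries, which chose the genes. CRISP3 and EPDR1 lie near 0 with UPF1 siRNA in R1881, at 0.03 and -0.14.

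NAV3 (ENSG00000067798.16, chr12:77324641-78213008, plus strand) encodes neuron navigator 3, which binds microtubules at their growing ends. It was the member raised by UPF1 siRNA and not by RCOR1 siRNA. With control siRNA and R1881 its level was 0.937, 1.90 and 1.17 CPM. With UPF1 siRNA it was 8.65, 10.1 and 11.1 CPM, a 7.32-fold rise (log2 2.87 ± 0.29 SE, edgeR adjusted p = 3.4e-06) and the 33rd largest of all genes in that comparison. With RCOR1 siRNA it was 0.733, 1.58 and 0.733 CPM, which overlapped the control libraries (log2 -0.43 ± 0.40, edgeR adjusted p = 0.56). At these levels the RCOR1 siRNA libraries held 9 to 18 reads of NAV3 each. In vehicle the order was the same: 6.76, 4.02 and 6.78 CPM with control siRNA, 52.2, 54.9 and 52.2 with UPF1 siRNA, and 2.68, 4.75 and 4.42 with RCOR1 siRNA. The control and RCOR1 siRNA libraries overlapped there too.

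Other genes of the microtubule plus end were called in both directions with UPF1 siRNA. Of 15 listed genes, all tested, UPF1 siRNA in R1881 raised 2 and lowered 1, beside 17.6% and 15.7% of all genes, with a median log2 change of -0.17 against -0.0029 for all genes. The 3 calls became 5 without control siRNA replicate 1 or without UPF1 siRNA replicate 3. In vehicle UPF1 siRNA raised 4 and lowered 5 of the 15, beside 18.5% and 16% of all genes, and these 9 calls became 6 to 9 on leaving out 1 library. In R1881 MAPRE2 and MAPRE3, which belong to the EB proteins that track growing microtubule ends, rose by 0.75 and 0.42, and SLAIN1, a plus-end tracking protein, fell by 1.13. RCOR1 siRNA raised MAPRE2 by 0.40 (edgeR adjusted p = 0.027) and called no other gene of the list. That call was lost without control siRNA replicate 1 or 2, without RCOR1 siRNA replicate 2 or 3, in the 9 R1881 libraries alone and without a filter on low counts. In vehicle MAPRE2 fell by 0.35 with RCOR1 siRNA (edgeR adjusted p = 0.033), again the single call of the list, and 4 of the 6 fits that left out 1 library called none. The paralogues of NAV3 were not called in R1881 with either siRNA. NAV1 lay at -0.13 ± 0.13 with UPF1 siRNA and at -0.10 ± 0.13 with RCOR1 siRNA. NAV2, at 0.293 to 0.901 CPM on average in the R1881 groups, lay at -1.33 ± 0.56 (edgeR adjusted p = 0.08) and 0.24 ± 0.47. In vehicle, where NAV3 was 9.10-fold higher with UPF1 siRNA, NAV1 fell by 0.46 and NAV2 fell by 1.26 (edgeR adjusted p = 0.0076 and 0.031).

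EPB41L3 (ENSG00000082397.18, chr18:5392381-5630700, minus strand) encodes a protein of the 4.1 family, which ties membrane proteins to the spectrin and actin skeleton, and is known as a growth suppressor lost in several cancers. Both siRNAs raised it in R1881, RCOR1 siRNA more than UPF1 siRNA. Its level was 1.66, 1.90 and 1.90 CPM with control siRNA, 3.14, 3.50 and 3.91 with UPF1 siRNA, and 4.4, 5.26 and 6.59 with RCOR1 siRNA. The 3 groups did not overlap. The log2 rise was 0.94 ± 0.23 (SE, edgeR adjusted p = 0.006) with UPF1 siRNA and 1.57 ± 0.23 (3e-04) with RCOR1 siRNA. Without the 2 UPF1 siRNA libraries low in AT-rich transcripts, the rise with UPF1 siRNA was 1.05 and was no longer called (edgeR adjusted p = 0.056). In vehicle the siRNAs stood in the opposite order, a change of order that was not tested: 1.59, 1.73 and 2.84 CPM with control siRNA, 8.69, 8.53 and 7.72 with UPF1 siRNA, and 5.54, 4.68 and 7.23 with RCOR1 siRNA.

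Of the 3 close relatives of EPB41L3, 1 was called in R1881. EPB41, which encodes protein 4.1R, was at 140 CPM with control siRNA in R1881 and lay at 0.0011 ± 0.0741 with UPF1 siRNA and at -0.21 ± 0.07 with RCOR1 siRNA (edgeR adjusted p = 0.079). EPB41L1 was raised by 0.31 with UPF1 siRNA (edgeR adjusted p = 0.0078), and EPB41L2 was called with neither. Over the list of 19 protein 4.1 and membrane skeleton genes, UPF1 siRNA in R1881 raised 2 and lowered 3, beside 17.6% and 15.7% of all genes, with a median of 0.08. Without both low libraries 2 were called, both lower. ADD1, an adducin that caps actin filaments at spectrin junctions, rose by 0.44, while moesin (MSN), which links actin to the membrane, fell by 0.41. CADM4, an adhesion molecule, fell by 0.75. With RCOR1 siRNA CADM4 fell by 0.49 (edgeR adjusted p = 0.033) and was the single gene called. That call was lost when any 1 library was left out.

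FBN1 (ENSG00000166147.15, chr15:48408306-48645849, minus strand) encodes fibrillin-1, the main protein of the extracellular microfibrils that scaffold elastic fibres and hold latent TGF-beta. Both siRNAs raised it. In R1881 the level was 2.09, 1.75 and 1.90 CPM with control siRNA, 6.21, 6.86 and 7.40 with UPF1 siRNA, and 4.55, 6.75 and 5.37 with RCOR1 siRNA. Neither siRNA group overlapped the control libraries, and they overlapped each other. The rise was 3.54-fold with UPF1 siRNA (log2 1.82 ± 0.19 SE, edgeR adjusted p = 4.2e-06) and 2.88-fold with RCOR1 siRNA (1.53 ± 0.19, 1e-04). In vehicle the siRNA groups stood apart, at 10.5, 11.1 and 8.88 CPM with UPF1 siRNA and 3.30, 4.12 and 5.14 with RCOR1 siRNA, against 1.19, 1.46 and 1.38 with control siRNA. FBN1 is often read as a sign of fibroblasts. The fibroblast list, of which 2 of 10 genes passed the filter, summed to 3.98 to 6.34 CPM with control siRNA in R1881, 6.86 to 8.01 with UPF1 siRNA and 5.79 to 7.11 with RCOR1 siRNA. In vehicle it summed to 12.47 to 14.57 CPM with control siRNA, 18.33 to 23.36 with UPF1 siRNA and 14.7 to 18.13 with RCOR1 siRNA. Over all libraries COL1A1 and COL3A1 had 1895 and 930 counts. PDGFRB, LUM, POSTN and PDGFRA had 43, 13, 4 and 2, and COL1A2, DCN, FAP and THY1 had at most 1 each. In R1881 COL3A1 was higher with UPF1 siRNA (log2 1.40, edgeR adjusted p = 0.021) and COL1A1 was not called (0.32, 0.16).

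Genes that build or hold the elastic fibre were called in both directions. Of 31 listed genes 14 passed the filter on low counts, and the other fibrillins, FBN2 and FBN3, did not, with 5 and 6 counts over all libraries. UPF1 siRNA in R1881 raised 3 of the 14 and lowered 2, beside 17.6% and 15.7% of all genes, with a median of 0.46. LOXL1, which cross-links elastin, rose by 1.19 ± 0.30 (edgeR adjusted p = 0.0061). THSD4, which promotes fibrillin assembly, rose by 1.12 ± 0.16 (edgeR adjusted p = 6e-05), and LTBP2, a microfibril protein of the latent TGF-beta binding family, fell by 0.66. With RCOR1 siRNA 0 of the 14 were raised and 2 were lowered, beside 5.06% and 7.33% of all genes, with a median of -0.10. These were THSD4, at -0.62 ± 0.17 (edgeR adjusted p = 0.029), and ADAMTSL4, at -0.93 ± 0.27 (0.035). The number called in this list was unsteady: 5 with UPF1 siRNA became 3 to 4 on leaving out 1 library and 1 without both low libraries, and 2 with RCOR1 siRNA became 0 to 2. In vehicle UPF1 siRNA raised 4 and lowered 3 of the list, LOXL1 (1.74) and THSD4 (1.40) among those raised, where 18.5% of all genes were called higher and 16% lower. These 7 calls became 4 without control siRNA replicate 2 in vehicle. RCOR1 siRNA in vehicle raised 1 and lowered 0, where 5.31% were higher and 6.21% lower.

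CRISP3 (ENSG00000096006.12, chr6:49727384-49744437, minus strand) encodes a cysteine-rich secreted protein known to be high in part of prostate cancers. It was raised by RCOR1 siRNA in R1881 and was not called with UPF1 siRNA. Its level was 2.88, 5.41 and 3.98 CPM with control siRNA and 7.70, 9.21 and 9.85 with RCOR1 siRNA, which did not overlap (log2 1.12 ± 0.33 SE, edgeR adjusted p = 0.037). That call is weak: leaving out any library of the comparison except control siRNA replicate 2 moved the adjusted p to between 0.051 and 0.13, with log2 values of 0.92 to 1.22. With UPF1 siRNA the level was 3.02, 3.29 and 6.46 CPM, and the libraries overlapped those with control siRNA (log2 0.03 ± 0.35, edgeR adjusted p = 0.96). Replicates 1 and 2, the low values, are the 2 libraries low in AT-rich transcripts. Without them the difference was 0.61 and not called (edgeR adjusted p = 0.40). In vehicle both siRNAs gave higher levels: 3.58, 1.18 and 2.57 CPM with control siRNA, 7.44, 9.01 and 10.5 with UPF1 siRNA, and 5.54, 7.40 and 9.08 with RCOR1 siRNA.

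The nearest relatives of CRISP3 were not measurable, with 7 counts of CRISP1 and 0 of CRISP2 in all libraries. Of 13 CAP superfamily genes and binding partners of CRISP3, 5 were tested. MSMB, the prostate secretory protein that binds CRISP3, rose by 1.87 ± 0.32 with UPF1 siRNA in R1881 (edgeR adjusted p = 0.00035), from a mean of 0.682 to 2.56 CPM. It was not called with RCOR1 siRNA (0.65 ± 0.36, edgeR adjusted p = 0.29). CRISPLD2, another secreted CAP protein, fell by 1.21 with UPF1 siRNA and by 0.77 with RCOR1 siRNA (edgeR adjusted p = 1.5e-06 and 0.00029). In vehicle it fell by 0.59 and fell by 0.48 (edgeR adjusted p = 0.0011 and 0.015), and the call with RCOR1 siRNA was lost without control siRNA replicate 2 or RCOR1 siRNA replicate 3 there.

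EPDR1 (ENSG00000086289.12, chr7:37683843-37951941, plus strand) encodes ependymin-related protein 1, a lipid-binding glycoprotein that is found in lysosomes and is also secreted. RCOR1 siRNA raised it in R1881, from 6.56, 8.04 and 8.40 CPM with control siRNA to 16.7, 14.4 and 13.4. The rise was 1.94-fold (log2 0.96 ± 0.16 SE, edgeR adjusted p = 0.0011). With UPF1 siRNA the level was 6.85, 5.88 and 8.17 CPM and overlapped the control libraries (log2 -0.14 ± 0.17, edgeR adjusted p = 0.55). In vehicle the levels were lower in every arm: 2.25, 2.22 and 1.65 CPM with control siRNA, 2.96, 3.0 and 4.4 with UPF1 siRNA, and 7.66, 6.42 and 7.23 with RCOR1 siRNA. The annotated span of EPDR1 overlaps GPR141, NME8 and SFRP4, which had 1, 0 and 4 counts in all libraries.

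EFNA5 (ENSG00000184349.14, chr5:107376889-107670895, minus strand) encodes ephrin-A5, a ligand held on the cell surface by a lipid anchor that signals to EphA receptors on neighbouring cells. It was by far the most expressed member, so its small differences were measured with the least error. Per kilobase of exon, its level with control siRNA in vehicle was 27.6 ± 0.86 CPM (SD, n = 3), against 0.0835 (FBN1) to 1.09 (CRISP3) for the other members. RCOR1 siRNA raised it in R1881 from 331, 355 and 337 CPM to 630, 612 and 614, a 1.81-fold rise (log2 0.86 ± 0.05 SE, edgeR adjusted p = 6.6e-08). With UPF1 siRNA the level was 380, 384 and 391 CPM, above all control libraries but by 1.13-fold (log2 0.17 ± 0.05, edgeR adjusted p = 0.014). That call was lost without control siRNA replicate 3 (0.13, edgeR adjusted p = 0.16), without the 2 low libraries (0.14, 0.32), in a fit of the 9 R1881 libraries alone (0.18, 0.058) and without a filter on low counts (0.19, 0.29). In vehicle the libraries lay at 163, 156 and 154 CPM with control siRNA, 176, 175 and 177 with UPF1 siRNA and 437, 435 and 441 with RCOR1 siRNA. The vehicle difference with RCOR1 siRNA was 2.78-fold.

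In R1881, the other A-class ephrins EFNA1, EFNA3 and EFNA4 were called with neither siRNA. With RCOR1 siRNA they lay at -0.21 ± 0.09, -0.06 ± 0.13 and -0.23 ± 0.14 on the log2 scale. EFNA2 had 32 counts in all and was not tested. In vehicle EFNA1 was higher with both siRNAs, by 0.53 with UPF1 siRNA and 0.38 with RCOR1 siRNA (edgeR adjusted p = 0.00034 and 0.015). EFNA3 and EFNA4 went the other way with UPF1 siRNA: EFNA3 fell by 0.46 and EFNA4 fell by 0.39 (edgeR adjusted p = 0.0079 and 0.039). With RCOR1 siRNA they were not called, at -0.15 and -0.27. Of 21 listed ephrins and Eph receptors 17 were tested, and RCOR1 siRNA in R1881 raised 2 and lowered 1, beside 5.06% and 7.33% of all genes, with a median of -0.06. EFNB2, a transmembrane ephrin, rose by 0.50 ± 0.07 (edgeR adjusted p = 0.00024), and the kinase-dead receptor EPHB6 rose by 1.63 ± 0.45 (0.026) from a mean of 0.272 to 0.818 CPM. EFNB1 fell by 0.51 ± 0.13 (edgeR adjusted p = 0.014). Leaving out 1 library gave 1 to 4 called genes. With UPF1 siRNA in R1881, 5 rose and 2 fell, beside 17.6% and 15.7% of all genes, with a median of -0.11. EPHA10 rose by 0.86 and EPHA2 by 0.69, and EPHA7 fell by 0.98, all 3 being receptors for A-class ephrins. Leaving out 1 library gave 3 to 8 calls, the lowest without control siRNA replicate 3, and leaving out both low libraries gave 1. In vehicle UPF1 siRNA raised 6 and lowered 5 of the 17, beside 18.5% and 16% of all genes. There the mean of EPHA7 was 18.05 CPM with control siRNA and 36.37 with UPF1 siRNA, opposite in direction to R1881. The means of EPHA10 and EPHA2 were higher with UPF1 siRNA in vehicle too. RCOR1 siRNA in vehicle raised 3 and lowered 1, beside 5.31% and 6.21%, and these 4 calls became 1 to 3 on leaving out 1 library.

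FAM184B (ENSG00000047662.5, chr4:17629306-17781512, minus strand) encodes a coiled-coil protein whose role is little known. It had the largest rise of the 7 genes with RCOR1 siRNA in R1881, 4.44-fold (log2 2.15 ± 0.25 SE, edgeR adjusted p = 4.3e-05), the 40th largest of all genes. Its level was 0.937, 1.97 and 1.26 CPM with control siRNA and 6.97, 5.26 and 6.43 with RCOR1 siRNA. With UPF1 siRNA it was 1.51, 1.68 and 2.72 CPM, overlapping the control libraries (log2 0.46 ± 0.28, edgeR adjusted p = 0.23). The 2 lower values are from the libraries low in AT-rich transcripts. Over the alternative fits the log2 difference ran from 0.19 to 0.90. In vehicle the 3 arms stood apart: 3.38, 2.22 and 2.84 CPM with control siRNA, 6.12, 6.72 and 7.07 with UPF1 siRNA, and 12.5, 14.2 and 14.7 with RCOR1 siRNA. FAM184B shares 3520 of its 6622 exon bases with MED28, a Mediator subunit gene on the opposite strand. The strand setting of the counting is not given in the sources used here. Whether reads from the shared bases were kept apart by gene is therefore not known. MED28 itself was higher with RCOR1 siRNA in R1881 by 0.39 (edgeR adjusted p = 0.0066) and fell by 0.85 with UPF1 siRNA (3.4e-06). The paralogue FAM184A in R1881 lay at 0.03 ± 0.45 with RCOR1 siRNA and fell by 1.90 ± 0.55 with UPF1 siRNA (edgeR adjusted p = 0.014), from a mean of 2.02 to 0.533 CPM. In vehicle FAM184A lay at -0.43 with UPF1 siRNA and was not called. Leaving out libraries was not tested for FAM184A.

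**Figure D3:**
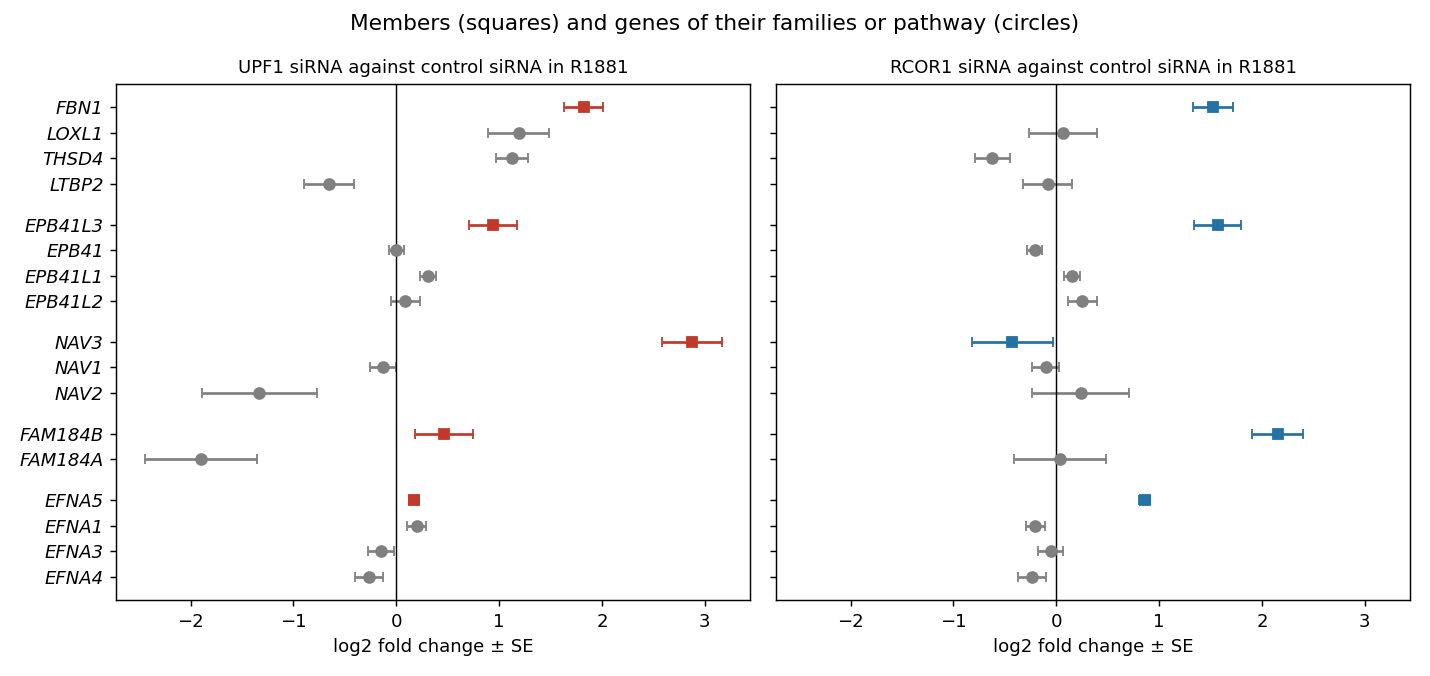
Log2 fold change ± SE in R1881 of 5 members (squares) and of genes of their family or pathway (circles), with UPF1 siRNA (left) and RCOR1 siRNA (right) against control siRNA. EFNA5 lies at 0.86 with RCOR1 siRNA and its relatives EFNA1, EFNA3 and EFNA4 between -0.23 and -0.06. CRISP3 and EPDR1 are not drawn, since CRISP1 and CRISP2 were not tested and no paralogue of EPDR1 was listed.

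The 7 genes differed in their level with and without androgen. These values share the vehicle libraries that chose the genes, so they are given without tests. With control siRNA, R1881 gave lower NAV3 (log2 -2.11 ± 0.30 SE) and FAM184B (-1.01 ± 0.27), and higher EPDR1 (1.89 ± 0.19) and EFNA5 (1.12 ± 0.05), with no overlap between treatments. Over all genes, 21.8% had R1881 libraries all above and 21.1% all below the vehicle libraries with control siRNA. EPDR1 and EFNA5 were thus higher both with androgen and with RCOR1 siRNA, and NAV3 was lower with androgen in all 3 arms, by -2.42 with UPF1 siRNA and -1.97 with RCOR1 siRNA. The difference in EFNA5 with R1881 was 1.13 with UPF1 siRNA and 0.50 with RCOR1 siRNA. For EPDR1 it was 1.0 and 1.06. FBN1, EPB41L3 and CRISP3 lay at 0.51, -0.15 and 0.74 with control siRNA and at 0.41, -0.10 and 0.29 with RCOR1 siRNA. With UPF1 siRNA they lay at -0.58, -1.25 and -1.11, and all 3 had lower libraries in R1881 than in vehicle without overlap, which held for 22.5% of all genes. Without the 2 low libraries CRISP3 lay at -0.50. Scaling by library size alone moved the median of all genes to -0.22 in the androgen comparison with control siRNA, and FBN1 then lay at 0.27. The sign of EPB41L3 with control siRNA and with RCOR1 siRNA changed on leaving out 1 library.

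**Figure D4:**
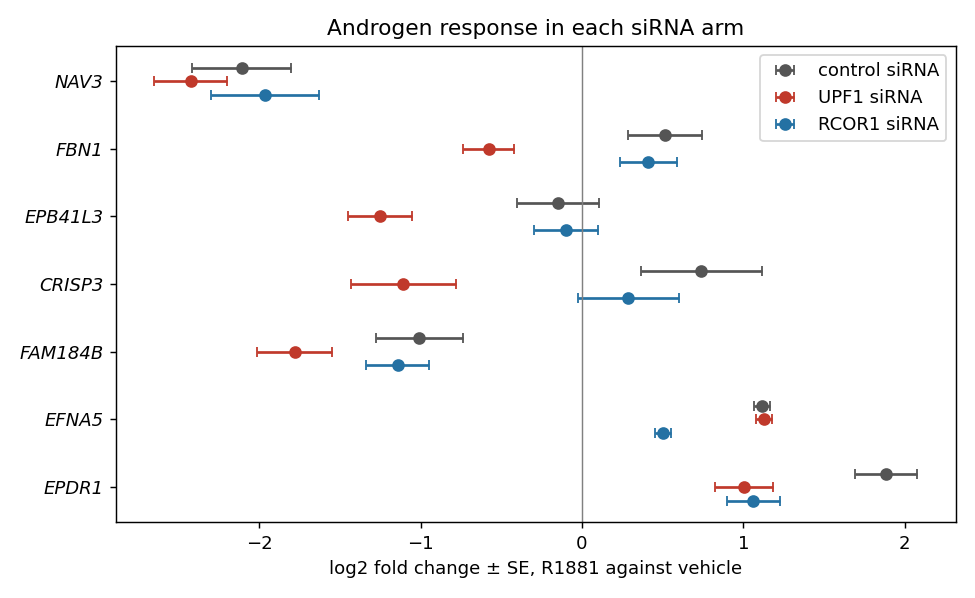
Log2 fold change ± SE of the 7 genes in R1881 against vehicle, within each siRNA arm, described without a test. NAV3 and FAM184B lie below 0 in every arm and EFNA5 and EPDR1 above it, while FBN1 lies at 0.51 with control siRNA and -0.58 with UPF1 siRNA.

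Over the 18 libraries, the genes most alike in level to each member gave a second view of these patterns. Likeness was the Pearson correlation of log2 CPM, given as a description, since the points share libraries, groups and depth. NAV3 was most like RELN (0.979), PTPRR (0.969) and PLEKHS1 (0.965). EFNA5 was most like SLC36A1 (0.965), DHRS7 (0.961) and EPDR1 (0.951), and EPDR1 most like EFNA5, SLC36A1 (0.94) and MAML2 (0.932). FBN1 was most like HOPX (0.949), FGGY (0.948) and PXK (0.947), and FAM184B most like KRBA2 (0.951), ABCC5 (0.944) and CCDC18-AS1 (0.942). The values were lower for EPB41L3, with GCOM1 (0.899), COX20 (0.895) and FRRS1 (0.892), and for CRISP3, with FKBP3 (0.888), ERO1B (0.883) and CRIPT (0.883).

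The genes are mostly long. Of the 7, all but CRISP3 span 152 to 888 kb of genome in GENCODE 29, each above 88.4% or more of the 12385 tested protein-coding genes, whose median is 33.6 kb. CRISP3 spans 17.1 kb. The mature transcripts are not alike, taking for each gene the 1 with the longest coding sequence. The longest 3′ untranslated region among these belongs to EFNA5, with 4366 bases against a median of 979, and that of CRISP3 has 22. The 3′ regions of other transcripts were not measured. For CRISP3 the exons of all annotated transcripts cover 2247 bases, against 828 coding bases in the transcript taken. Transcripts annotated as NMD substrates were listed for FBN1 (2 of 8) and EPB41L3 (2 of 36) and for none of the other 5 genes, while 43.1% of tested protein-coding genes had at least 1. Counts per gene do not separate such transcripts from the others. The GC content of the mature transcripts ran from 43.1% (CRISP3) to 49.4% (EPB41L3). The median over tested protein-coding genes was 49.2%, and 5 of the 7 lay below it.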

How the data were processed

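The authors deposited unnormalized read counts per gene for 18 LNCaP libraries in 6 groups of 3. Per the submitters' processing notes, the aligner was STAR 2.7.9a, the build GRCh38.p7 and the counter featureCounts (Subread 1.6.4). For annotation release and strand setting, nothing is given in the sources used here. In R 4.3.3 with edgeR 4.0.16, filterByExpr by group kept 15390 of 60649 genes, libraries were scaled by TMM, the model held 1 mean per group over the 18 libraries, and the quasi-likelihood F test was used with Benjamini-Hochberg adjustment over all genes tested (called below 0.05). The SE was taken from the F statistic of each contrast (size of the log2 change over root F). All 7 members passed the filter through the control vehicle libraries alone. Errors cover counting and the spread between these triplicates. Replicate numbers follow the order of the samples, only name libraries and pair none across groups.

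The members, gene lists and alternatives were chosen with earlier results of these data known. Named beside the members were the siRNA targets, the 3 genes most alike in level to each member, of each list at most 3 called genes per contrast with the largest change, the members' close paralogues, and marker genes and overlapping or neighbouring genes with their values. Alternatives were other scaling, no filter on low counts, the R1881 libraries alone, DESeq2 1.42.0, and leaving out libraries. The vehicle libraries were left out in turn as an alternative added after seeing the data. The scripts were tested on simulated counts. Promoters came from RefSeq (GRCh38.p14) by symbol, with 7 of 7 genes matched, and spans from GENCODE 29.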

Additional observations from a re-analysis of the deposited data

Results flagged for a closer look

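FBN1 stood out because its libraries moved in opposite directions with androgen in 2 siRNA arms. With control siRNA all R1881 libraries lay above all vehicle libraries, a log2 difference of 0.51 (1.34 ± 0.14 to 1.91 ± 0.17 CPM, SD, n = 3). With UPF1 siRNA all R1881 libraries lay below all vehicle libraries, a difference of -0.58 (10.2 ± 1.1 to 6.82 ± 0.59 CPM). The difference between the arms was not tested, because the vehicle libraries chose the gene.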

How the results depend on the processing

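Over all genes, the number called with UPF1 siRNA against control siRNA in R1881 was 5128 and fell to 1904 without both UPF1 siRNA libraries low in AT-rich transcripts, where the lone sample left is assumed to vary like the other groups. UPF1 siRNA against RCOR1 siRNA gave 6244 calls, and 2342 without them. RCOR1 siRNA against control siRNA gave 1907, with 1079 from the 9 R1881 libraries alone and 1092 to 1425 on leaving out 1 library. Scaling by library size alone moved the share of calls that were higher from 52.8% to 67.1% with UPF1 siRNA, where the median of all genes shifted to 0.12, and from 40.8% to 67.7% with RCOR1 siRNA. The causes were not tested. The 7 members had 84 alternative values with UPF1 siRNA, 77 with RCOR1 siRNA and 84 between the siRNAs. Of these, 79, 72 and 76 in that order kept their side of the threshold. The 18 that lost a call belong to EPB41L3, CRISP3 and EFNA5, and those not given with these genes above are CRISP3 (-0.51, edgeR adjusted p = 0.46) and EPB41L3 (-0.52, 0.31) between the siRNAs without both low libraries. No called value changed sign. Uncalled CRISP3 and EPDR1 with UPF1 siRNA changed sign in 3 and 1 alternatives. Low counts limit NAV3, FAM184B and FBN1, with as few as 9, 13 and 15 reads in a library. No paired analysis was possible because the labels and the count table carry no replicate numbers shared between groups.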

Other observations

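The nearest tested gene on each side of the 7 genes gave 14 neighbours. With UPF1 siRNA in R1881, 8 of the 14 were called lower and the other 6 were not called, beside 15.7% of all tested genes called lower and 17.6% called higher (edgeR adjusted p below 0.05). The 8 were CEP152, CENPQ, MCM3, E2F7, PAWR, MED28, FBXL17 and STARD3NL. This comparison includes the 2 libraries low in AT-rich transcripts, and leaving out libraries was not tested for the neighbours. In vehicle UPF1 siRNA lowered 5 of the 14 and raised 1, beside 16% and 18.5% of all genes. CEP152, CENPQ, PAWR, FBXL17 and STARD3NL were not called there. In R1881 CEP152, a centriole protein gene 67.1 kb from FBN1, fell by 2.202 on the log2 scale with UPF1 siRNA (edgeR adjusted p = 0.013), where FBN1 rose by 1.82. With RCOR1 siRNA in R1881, 1 of the 14 was called, MED28, which overlaps FAM184B and was higher. STARD3NL, 226.3 kb from EPDR1, was higher in R1881 than in vehicle with control siRNA by 1.38 (edgeR adjusted p = 9.7e-10), where EPDR1 was higher by 1.89. The neighbours were examined after their values were seen.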
